A study of Mus musculus with 12 samples.

Results

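The CXC chemokines are small secreted proteins that attract leukocytes, named for a pair of conserved cysteines with a single residue between them. The genes described here are Cxcl1, Cxcl2, Cxcl3, Cxcl5, Cxcl9, Cxcl10, Cxcl12, Cxcl13, Cxcl14 and Cxcl16, found on mouse heart arrays as every non-control probe that carries one of those gene names. All 10 genes had a probe, 14 probes in all of 56605 non-control probes, and 9 of the 10 were bright enough to be tested, among 19761 tested genes of 36981 with a probe. The genes were picked by name, with earlier results of these arrays known.

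Total RNA of 12 mouse heart samples was hybridised to single-colour Agilent arrays, 3 arrays a group. The groups were hearts with a transgene for CCRR, a long non-coding RNA, after myocardial infarction (TG-CCRR+MI), wild-type hearts after infarction (WT+MI), uninfarcted CCRR transgenic hearts (TG-CCRR) and uninfarcted wild-type hearts (WT). The labels give the strain C57/BL6 for WT and WT+MI only, so strain and transgene cannot be told apart. The transgene's promoter, the number of founder lines, the animals' age and sex, the time after infarction, the part of the heart sampled and any sham operation were not given in the sources used here. Nothing in the labels says that the arrays of a group hold separate animals, so the p-values reflect the scatter of these samples alone, and that scatter may be technical. CCRR itself was not analysed here.

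Slide 1 held all WT and WT+MI arrays with TG-CCRR 1 and 2, and slide 2 held TG-CCRR 3 with all TG-CCRR+MI arrays. TG-CCRR+MI and WT+MI hearts therefore shared no slide, and TG-CCRR 3 alone links the slides. Between 49.3% and 57.2% of probes were well above background on each array. All 6 cardiomyocyte markers, contractile genes of heart muscle, were above background on every array. Atrial markers (Nppa, Myl4, Myl7 and Sln), however, summed to between 75.02 and 322 in TG-CCRR+MI hearts, 235 to 677 in WT+MI, 477 to 1495 in TG-CCRR and 54.5 to 55.9 in WT hearts, in multiples of each array's 75th percentile of signal. In the tests described below, only Nppa of these 4 was called higher in WT+MI than in WT hearts. Myl7 and Sln were each well above background on 1 of 3 WT+MI arrays. The part of the atrial markers in the results below was not tested.

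The ligands fall into functional groups. Cxcl1, Cxcl2, Cxcl3 and Cxcl5 carry the Glu-Leu-Arg motif and act through Cxcr2, the receptor that brings neutrophils into injured tissue. Cxcl9 and Cxcl10 are interferon-inducible ligands of Cxcr3 on T cells and natural killer cells, and Cxcl12 is the homeostatic ligand of Cxcr4. Cxcl13 attracts B cells through Cxcr5, Cxcl16 is a membrane-anchored ligand of Cxcr6, and Cxcl14 is a constitutively made ligand of epithelia and other tissues. In infarcted heart the neutrophil-attracting ligands are known as early products of cardiac and inflammatory cells exposed to cytokines and to debris of dead cells, which signal through NF-kappa B.

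Cxcl1, Cxcl2, Cxcl3 and Cxcl5 lie within 146.6 kb of mouse chromosome 5 (chr5:90759298-90905938, GRCm38), and Cxcl9 and Cxcl10 lie within 27.56 kb further along it (chr5:92321331-92348889). RefSeq's promoter table (GRCm38.p6) matched 8 of the 10 genes, all but Cxcl5 and Cxcl16. The 120 bases upstream of the start of Cxcl1 (chr5:90891125-90891244, plus strand), Cxcl2 (chr5:90903779-90903898, plus strand) and Cxcl3 (chr5:90785981-90786100, plus strand) are shown because these genes moved together after infarction. Capitals mark matches to the kappa B consensus, the DNA motif of NF-kappa B, and to the TATA box TATAAA, searched on both strands.
Cxcl1: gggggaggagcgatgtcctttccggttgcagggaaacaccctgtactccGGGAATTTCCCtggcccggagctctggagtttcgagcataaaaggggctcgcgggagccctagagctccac
Cxcl2: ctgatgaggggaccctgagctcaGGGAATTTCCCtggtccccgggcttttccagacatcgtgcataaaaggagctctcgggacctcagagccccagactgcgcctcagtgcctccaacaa
Cxcl3: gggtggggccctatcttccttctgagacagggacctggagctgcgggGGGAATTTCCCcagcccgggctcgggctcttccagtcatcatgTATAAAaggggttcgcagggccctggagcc
Each holds the kappa B match GGGAATTTCC, which begins 71 bases before the start in Cxcl1, 97 in Cxcl2 and 73 in Cxcl3. Read on the other strand it matches again 1 base later, so the capitals run over 11 bases. Over the other 49 bases of a 60-base window aligned on it, the letters were identical at 40.8% between Cxcl1 and Cxcl3, 38.8% between Cxcl1 and Cxcl2 and 28.6% between Cxcl2 and Cxcl3. A match describes letters and not binding. Of 32851 mouse promoters, 7.25% held a kappa B match in the same 250 bases.

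The 250 bases before the table's start of Cxcl10 (chr5:92348890-92349139, minus strand) and Cxcl14 (chr13:56296552-56296801, minus strand) are shown next. Cxcl10 also rose after infarction in both genotypes, while Cxcl14 fell in WT and rose in TG-CCRR hearts. The table's start of Cxcl14 lies 260 bases inside the gene's annotated span (chr13:56288643-56296811), so its window is within the gene, while for the other 7 matched genes the start lies at the 5′ end of the span. Capitals mark kappa B matches and matches to the interferon-stimulated response element, searched as GAAANNGAAA on both strands and present in 2.98% of promoters.
Cxcl10: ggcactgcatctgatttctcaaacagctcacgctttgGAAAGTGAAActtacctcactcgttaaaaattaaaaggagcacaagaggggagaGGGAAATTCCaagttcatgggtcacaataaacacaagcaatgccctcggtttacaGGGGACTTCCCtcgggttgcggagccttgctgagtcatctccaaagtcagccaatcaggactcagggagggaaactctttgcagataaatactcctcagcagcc
Cxcl14: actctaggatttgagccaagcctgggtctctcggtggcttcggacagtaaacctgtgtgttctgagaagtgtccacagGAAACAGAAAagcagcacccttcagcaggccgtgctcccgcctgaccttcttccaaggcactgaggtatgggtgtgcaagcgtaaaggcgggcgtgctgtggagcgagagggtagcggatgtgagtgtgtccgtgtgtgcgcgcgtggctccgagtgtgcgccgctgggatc
Cxcl10 held the response element GAAAGTGAAA 213 bases before the start and kappa B matches in 2 places, from 159 and from 104 bases before it, with overlapping matches at the second. Cxcl14 held a single response element match, GAAACAGAAA, from 172 bases before the table's start. The other matched promoters held no kappa B match or response element. Cxcl9 and Cxcl13 held a TATA box, a motif in 12.4% of promoters, and Cxcl12 held none of the motifs. That says only that these letters are not in this window.

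**Figure D1:**
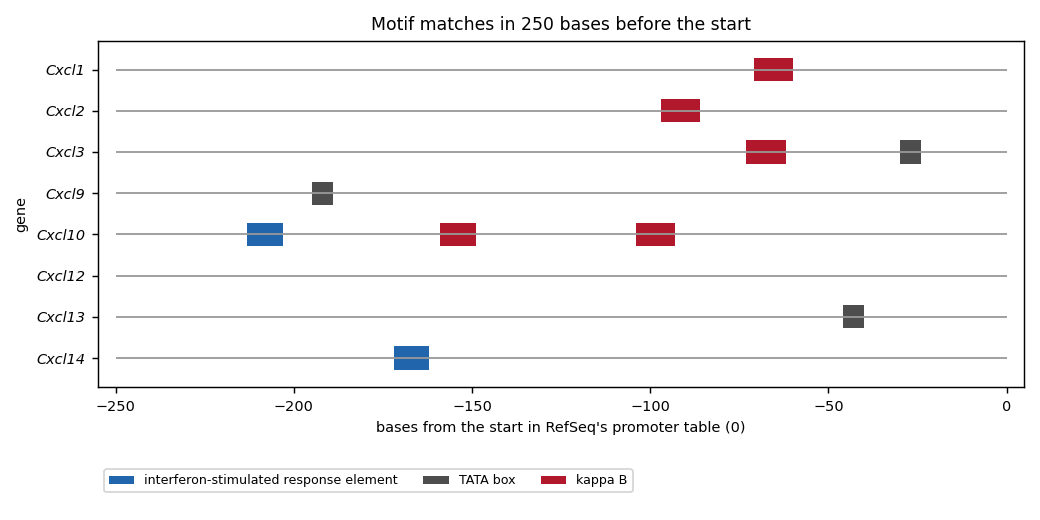
Positions of kappa B, interferon-stimulated response element and TATA box matches (coloured blocks) in the 250 bases before the start that RefSeq's promoter table gives for 8 CXC chemokine genes, in bases from that start at 0. The start of Cxcl14 is internal to its annotated span. Cxcl1, Cxcl2 and Cxcl3 each hold a kappa B match within 97 bases of the start.

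Values below are log2 levels, the log2 of an array's processed signal relative to the array's 75th percentile, so that a level of 0 is the signal at that percentile. Levels of different probes are not compared. Differences are tests with limma across all tested genes with Benjamini-Hochberg adjusted p-values, called at an adjusted p under 0.05, and each ± is a standard error unless marked SD. The first comparison asks how infarction altered the family in wild-type hearts.

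In WT+MI hearts, 5 of 9 tested members rose and 2 fell relative to WT hearts. Of all tested genes 18.6% rose and 29.3% fell in this comparison, 47.9% in all, so a call by itself was common, and the median member difference was 2.52 against -0.14 over all tested genes. All 4 neutrophil-attracting ligands rose. Cxcl2 entered the test through the WT+MI arrays alone, and Cxcl3 and Cxcl5 through the infarcted groups alone. Counts and medians over the tested members are therefore given as descriptions. In whole-heart RNA, a change in the number of cells of a type and a change in RNA per cell cannot be told apart.

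Cxcl3 had levels of 2.73, 0.63 and 1.01 in WT+MI hearts, against -5.21, -5.89 and -5.92 in WT hearts, where it was not well above background on any array. The groups lay far apart, and the level was at least 38.1-fold higher in WT+MI (adjusted p = 6.43e-05). Such a bound takes the dim group at the lowest signal that counts as well above background. Cxcl2 behaved alike, at -0.37, -2.21 and -0.17 in WT+MI hearts, against -5.37, -5.86 and -5.87 in WT hearts, again all below background in WT. It was at least 7.37-fold higher (adjusted p = 0.000142). Both genes encode ligands made by activated macrophages and neutrophils.

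Cxcl5, a ligand of the same receptor that many stromal and epithelial cells make, had levels of 4.94, 3.50 and 3.64 in WT+MI hearts, against -2.22, -2.77 and -3.91 in WT hearts. It was above background on 2 of 3 WT arrays and differed by 6.99 ± 0.53 (adjusted p = 3.26e-05). No WT+MI array came near a WT array. Cxcl1 had levels of 3.95, 2.60 and 2.29 in WT+MI hearts, against -1.49, -1.41 and -1.24 in WT hearts. This mouse counterpart of human GRO-alpha was measurable before infarction, with a spread of 0.13 (SD, n = 3) among WT hearts, and was 20.04-fold higher after it (log2 difference 4.32 ± 0.53, adjusted p = 0.00027).

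The Cxcr3 ligands parted. Cxcl10 had levels of 1.68, 1.48 and -0.18 in WT+MI hearts, against -1.82, -1.90 and -0.84 in WT hearts, a rise of 2.52 ± 0.51 (adjusted p = 0.00294). WT+MI 3 was the lowest infarcted array and still lay above every WT array. Cxcl9 had levels of -1.74, -2.50 and -2.10 in WT+MI hearts, against -0.15, 0.03 and 0.03 in WT hearts, and fell by 2.09 ± 0.28 on the log2 scale (adjusted p = 0.000409). These neighbours on chromosome 5 thus moved in opposite directions on the same arrays.

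Cxcl14 had levels of 2.07, 2.40 and 2.05 in WT+MI hearts, against 2.99, 3.54 and 2.77 in WT hearts. Its fall of 0.93 ± 0.33 had an adjusted p of 0.041, with no overlap between the groups, but the call held in only 5 of the 12 fits that left out 1 array, with adjusted p between 0.0104 and 0.145. Cxcl12 stood at 5.07, 5.77 and 6.06 in WT+MI hearts, against 5.88, 6.04 and 6.18 in WT hearts, a difference of -0.40 ± 0.22 that did not pass (adjusted p = 0.159). Leaving out WT+MI 3 gave -0.61 with an adjusted p of 0.0372. Cxcl16 differed by -0.27 ± 0.23 (adjusted p = 0.345), with overlapping groups.

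The other 6 calls of WT+MI against WT held in all 12 fits that left out 1 array. Their sizes depended on background correction, since normexp with an offset compresses dim signals. With it, the difference was 1.34 for Cxcl2, 3.07 for Cxcl3, 4.93 for Cxcl5, -1.15 for Cxcl9 and 1.69 for Cxcl10, all still called.

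**Figure D2:**
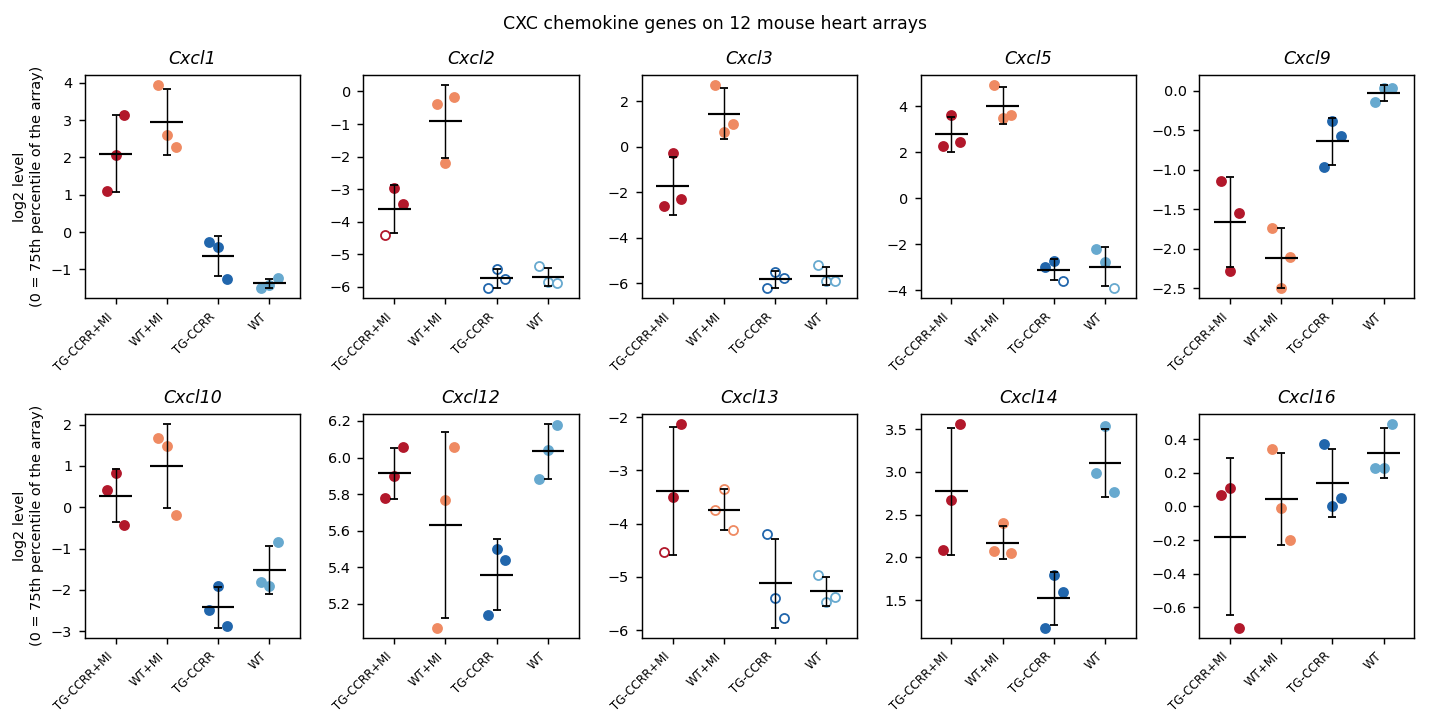
Log2 level (0 is the array's 75th percentile) of the 10 CXC chemokine genes on each of 12 arrays, in panels by gene and columns TG-CCRR+MI, WT+MI, TG-CCRR and WT. Points are arrays, open where the probe was not well above background, and bars show the mean and SD of 3 arrays. Cxcl2 and Cxcl3 lie lower on all TG-CCRR+MI arrays than on all WT+MI arrays, and below background in both uninfarcted groups.

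Infarction in transgenic hearts moved the same ligand group. In TG-CCRR+MI hearts 6 of 9 tested members rose and 1 fell relative to TG-CCRR hearts, in a comparison that called 8.85% of all tested genes (5.21% higher and 3.64% lower). The median member difference was 2.14 and that over all tested genes was 0.04.

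Cxcl5 had levels of 2.26, 3.63 and 2.44 in TG-CCRR+MI hearts, against -2.97, -2.71 and -3.61 in TG-CCRR hearts, and was higher by 5.87 ± 0.53 (adjusted p = 0.000309). Cxcl3 had levels of -2.60, -0.28 and -2.31 in TG-CCRR+MI hearts, against -6.22, -5.49 and -5.77 in TG-CCRR hearts, all of those below background, which makes it at least 3.55-fold higher (adjusted p = 0.00496). Both genes stood apart between the groups on every array. Cxcl1 had levels of 1.09, 2.06 and 3.15 in TG-CCRR+MI hearts, against -0.28, -0.40 and -1.27 in TG-CCRR hearts, a rise of 2.75 ± 0.53 (adjusted p = 0.0125). Cxcl2 had levels of -4.40, -2.95 and -3.46 in TG-CCRR+MI hearts, against -6.04, -5.44 and -5.75 in TG-CCRR hearts. It was above background on 2 of 3 TG-CCRR+MI arrays and on none of TG-CCRR, with a difference of 2.14 ± 0.51 (adjusted p = 0.0281). The fitted difference is no measured fold, since one group had no measurable signal. With normexp correction it was 0.40 (adjusted p = 0.281), and that of Cxcl3 was 1.27 (adjusted p = 0.0798).

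Cxcl10 had levels of 0.41, 0.84 and -0.42 in TG-CCRR+MI hearts, against -2.50, -1.90 and -2.87 in TG-CCRR hearts, a rise of 2.70 ± 0.51 (adjusted p = 0.012). Cxcl9 had levels of -1.15, -2.28 and -1.55 in TG-CCRR+MI hearts, against -0.97, -0.39 and -0.57 in TG-CCRR hearts. Its fall of 1.01 ± 0.28 (adjusted p = 0.0493) held in only 2 of 12 fits that left out 1 array. Cxcl14 took the other direction from wild type, with levels of 2.09, 2.67 and 3.56 in TG-CCRR+MI hearts, against 1.18, 1.79 and 1.59 in TG-CCRR hearts. This rise of 1.26 ± 0.33 (adjusted p = 0.0435) also held in 2 of 12 such fits. Cxcl12 differed by 0.55 ± 0.22 (adjusted p = 0.145) and Cxcl16 by -0.32 ± 0.23 (adjusted p = 0.409).

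Slide bears on this comparison, because TG-CCRR 1 and 2 lay on the other slide. With slide as a block only Cxcl5 of the members was called (6.39, adjusted p = 0.013), and the differences of Cxcl1, Cxcl2, Cxcl3 and Cxcl10 were 3.37, 2.15, 4.04 and 3.15 with adjusted p from 0.0894 to 0.275. Within slide 2, where TG-CCRR 3 is the lone uninfarcted array and its spread is taken from the other arrays, the differences were the same as with the block and no member was called by limma, with 5 members at an unadjusted p under 0.05.

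**Figure D3:**
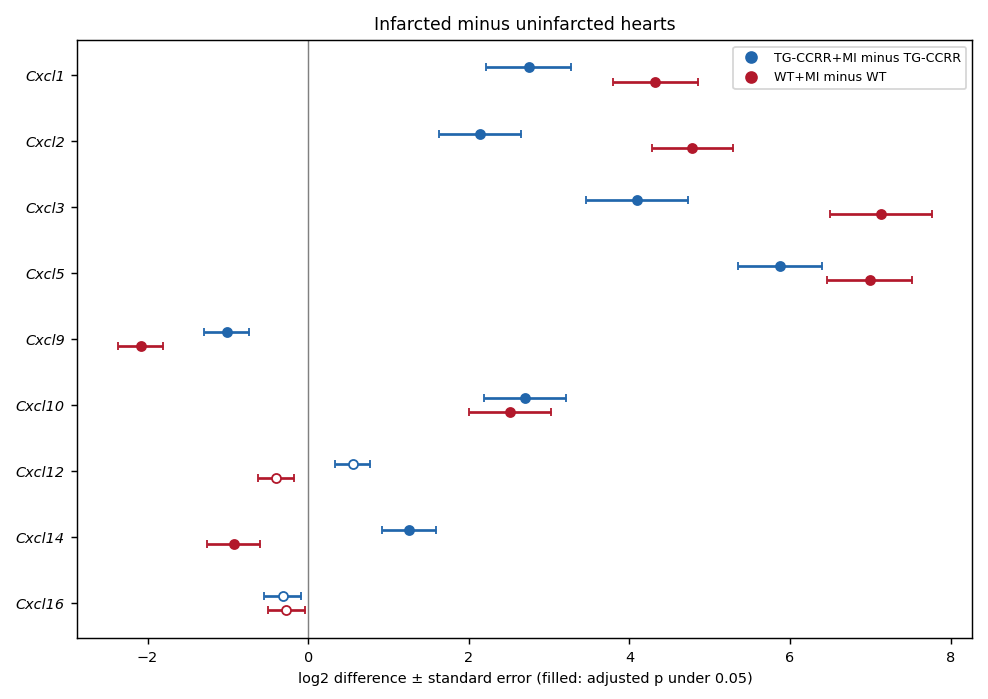
Log2 difference of infarcted minus uninfarcted hearts, with its standard error, for 9 tested CXC chemokine genes in TG-CCRR (blue) and WT (red) hearts, 3 arrays a group. Filled points passed an adjusted p of 0.05. The fitted differences of Cxcl1, Cxcl2, Cxcl3 and Cxcl5 are larger in WT, and Cxcl14 has opposite signs.

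The comparison of infarcted hearts asks whether the transgene went with another level of inflammatory gene expression after infarction, which is the subject that the title of the study names. Cxcl2 and Cxcl3 were lower in TG-CCRR+MI than in WT+MI hearts, 2 of 9 tested members, while no member was called higher. Cxcl2 was tested because all WT+MI arrays, its high group, were well above background. Without a filter on dim probes neither Cxcl2 nor Cxcl3 passed (limma, adjusted p = 0.0613 for each). Of all tested genes 4.38% were lower and 7.79% higher, 12.2% in all. The median member difference was -0.72, against 0.09 over all tested genes.

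Cxcl3 differed by -3.19 ± 0.64 (adjusted p = 0.028), from the per-array levels given above, and the highest TG-CCRR+MI array (-0.28) lay below the lowest WT+MI array (0.63). The WT+MI mean was 9.11-fold the TG-CCRR+MI mean. Cxcl2 differed by -2.69 ± 0.51 (adjusted p = 0.0261), with the highest TG-CCRR+MI array at -2.95 and the lowest WT+MI array at -2.21. For this gene the WT+MI mean was 6.44-fold higher, with TG-CCRR+MI 1 not above background. The WT+MI groups of both genes spread over more than 1 log2 unit, with an SD of 1.12 (n = 3) for each.

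Cxcl1 and Cxcl5, ligands of the same receptor, did not pass. Cxcl5 differed by -1.24 ± 0.53 (adjusted p = 0.128), with TG-CCRR+MI 2 above WT+MI 2, and passed only with normexp correction (-1.18, adjusted p = 0.0415). Cxcl1 differed by -0.85 ± 0.53 (adjusted p = 0.281), and its TG-CCRR+MI 3 array lay above WT+MI 2 and 3. Of the Cxcr3 ligands, Cxcl10 differed by -0.72 ± 0.51 (adjusted p = 0.347) and Cxcl9 by 0.46 ± 0.28 (adjusted p = 0.275). Cxcl14 differed by 0.61 ± 0.33 (adjusted p = 0.228), Cxcl12 by 0.28 ± 0.22 (adjusted p = 0.394) and Cxcl16 by -0.23 ± 0.23 (adjusted p = 0.51). All of these groups overlapped.

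No array of one group shared a slide with an array of the other, so slide and group cannot be told apart by a direct comparison. With slide as a block, which rests on TG-CCRR 3, Cxcl2 differed by -2.67 (adjusted p = 0.648) and Cxcl3 by -3.27 (adjusted p = 0.649), and limma called 0 of all 19761 genes, with 1469 at an unadjusted p under 0.05. Both calls were also lost without WT+MI 1, without TG-CCRR+MI 1 and without TG-CCRR+MI 3, where the Cxcl2 difference was -2.41, -2.29 and -2.76 and that of Cxcl3 was -2.55, -2.75 and -2.90, with adjusted p between 0.0740 and 0.0901. The value of Cxcl2 with normexp correction was -1.26 (adjusted p = 0.00788). With slide as a block, or without TG-CCRR+MI 1, no call of any other gene given below for this comparison held either.

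Some neutrophil markers were lower in the same comparison. The summed level of 10 markers, genes of granule proteins and surface receptors, ranged from 193 to 216 in TG-CCRR+MI hearts, 382 to 560 in WT+MI, 117 to 128 in TG-CCRR and 141 to 158 in WT, in multiples of each array's 75th percentile. Of 9 tested markers 3 were lower in TG-CCRR+MI than in WT+MI hearts, S100a8 (-3.01), S100a9 (-2.72) and Mmp8 (-2.004), where 4.38% of all tested genes were. The other markers did not pass, among them Retnlg (-2.53), Lcn2 (-0.71), Ltf (-0.63), Csf3r (-0.27), Camp (0.22) and Ly6g (0.31). In WT+MI against WT, 5 rose and 2 fell, where 18.6% of all tested genes rose and 29.3% fell. The 2 that fell, Camp and Ltf, encode proteins stored in neutrophil granules. Among uninfarcted hearts 3 of the 9 were also lower in TG-CCRR than in WT, where 1.13% of all tested genes were. These were S100a9 (-2.07), Camp (-1.83) and Ltf, at least 1.71-fold lower, while S100a8 (-2.06, limma, adjusted p = 0.0537) did not pass. Whether the neutrophil share accounts for any chemokine value was not tested. Of 12 tested monocyte and macrophage markers 2 were lower in TG-CCRR+MI than in WT+MI hearts, Ccr2 (-2.70) and Cd68 (-1.17). The others did not pass there. Differences were negative for Fcgr1 (-1.71), Plac8 (-1.47), Lyz2 (-0.98), Adgre1 (-0.83), Csf1r (-0.75) and Mrc1 (-0.27). They were positive for Ly6c2 (0.715), Cd163 (0.19), C1qa (0.10) and C1qb (0.05). In WT+MI against WT 4 of the 12 rose. None of 5 tested T and natural killer cell markers was called by limma in any comparison or at an unadjusted p under 0.05, with summed levels of 2.02 to 2.66 in TG-CCRR+MI hearts, 1.92 to 2.63 in WT+MI, 1.83 to 2.47 in TG-CCRR and 2.28 to 3.11 in WT hearts.

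Some stromal markers were called. The summed level of 5 fibroblast markers ranged from 163 to 203 in TG-CCRR+MI hearts, 120 to 162 in WT+MI, 254 to 306 in TG-CCRR and 206 to 235 in WT hearts. Of these, Dcn (-0.75) and Tcf21 (-1.10) were lower in WT+MI than in WT hearts. In TG-CCRR+MI against TG-CCRR hearts 2 of 5 were lower, Col1a1 (-1.64) and Lum (-1.39), where 3.64% of all tested genes were. Of 5 endothelial markers Kdr (-0.99) and Tie1 (-0.60) were lower in WT+MI than in WT hearts, and of 6 cardiomyocyte markers Tnni3 (-0.57) was, in a comparison where 29.3% of all tested genes fell. Col1a1 (0.04), Pdgfra (0.43), Cdh5 (0.02), Pecam1 (0.05) and Emcn (0.19) did not pass there. Fibroblasts and endothelium are among the known sources of Cxcl12 and Cxcl14, and the part of these markers in either gene's values was not tested. No adipocyte marker (3 tested) and no platelet marker (1 tested) was called by limma in any comparison, though 2 adipocyte markers had an unadjusted p under 0.05 in TG-CCRR against WT and in TG-CCRR+MI against TG-CCRR, and 1 in the interaction.

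Among uninfarcted hearts Cxcl14 was the sole member called between genotypes. It had levels of 1.18, 1.79 and 1.59 in TG-CCRR hearts, against 2.99, 3.54 and 2.77 in WT hearts, a difference of -1.58 ± 0.33 (adjusted p = 0.0371). The WT mean was 2.99-fold the TG-CCRR mean and the groups did not overlap. In this comparison 2.62% of all tested genes were called (1.13% lower and 1.49% higher), against 1 of 9 members. The call held in 3 of 12 fits that left out 1 array, with adjusted p between 0.00959 and 0.131, and not with slide as a block (-1.61, adjusted p = 0.0761), although it passed on slide 1 alone (-1.61, adjusted p = 0.0361). Atrial markers Myl4 (6.92) and Nppa (2.82), and the mesothelial marker Msln, at least 9.66-fold higher, were also called higher in TG-CCRR than in WT hearts. The other tested mesothelial marker, Wt1, did not pass and had the opposite sign (-0.37, limma, adjusted p = 0.486). The part of these markers in the Cxcl14 value was not tested.

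Cxcl9 and Cxcl12 were lower on every TG-CCRR array than on every WT array without passing. Cxcl12 had levels of 5.14, 5.50 and 5.44 in TG-CCRR hearts, against 5.88, 6.04 and 6.18 in WT hearts (difference -0.67 ± 0.22, adjusted p = 0.149), and passed without WT+MI 1 (adjusted p = 0.0366). Cxcl9 differed by -0.62 ± 0.28 (adjusted p = 0.283). With Cxcl14 these made 3 of 9 members whose TG-CCRR arrays all lay below the WT arrays, where 20.9% of all tested genes did so. Cxcl1 differed by 0.73 ± 0.53 (adjusted p = 0.518), Cxcl10 by -0.90 ± 0.51 (adjusted p = 0.393), Cxcl5 by -0.13 ± 0.53 (adjusted p = 0.934) and Cxcl16 by -0.18 ± 0.23 (adjusted p = 0.738). Cxcl2 and Cxcl3 were not well above background on any array of either group, so no fold is given.

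The infarction responses of the genotypes were compared directly, as the response in TG-CCRR hearts minus that in WT hearts. This interaction was called for 8.9% of all tested genes (3.05% lower, 5.85% higher) and for 2 of 9 members. For Cxcl14 it was 2.19 ± 0.47 (adjusted p = 0.0358). For Cxcl2 the fitted value was -2.65 ± 0.72 (adjusted p = 0.0477), but the gene was below background on every TG-CCRR and WT array and was tested through WT+MI alone, so neither response was measured from a baseline and the value is no measured difference of responses. Without a filter on dim probes its adjusted p was 0.0815. Cxcl14 fell in WT and rose in TG-CCRR hearts, and every array of the other 3 groups lay above every TG-CCRR array.

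Cxcl3, likewise below background in both uninfarcted groups, had a fitted interaction of -3.04 ± 0.90 (adjusted p = 0.0586), which passed without TG-CCRR+MI 2 (-3.76, adjusted p = 0.0208). Cxcl12 (0.95 ± 0.31, adjusted p = 0.0747), Cxcl9 (1.07 ± 0.40, adjusted p = 0.0982), Cxcl1 (-1.58 ± 0.75, adjusted p = 0.171), Cxcl5 (-1.12 ± 0.74, adjusted p = 0.32), Cxcl10 (0.18 ± 0.73, adjusted p = 0.886) and Cxcl16 (-0.05 ± 0.32, adjusted p = 0.932) did not pass. The Cxcl2 call is fragile. It held in 2 of 12 fits that left out 1 array and in none of 7 other alternatives, where adjusted p ran from 0.0507 to 0.244, and with normexp correction the value was -0.94. The Cxcl14 call held in 6 of 12 such fits, with adjusted p from 0.031 to 0.0784, and with slide as a block it was 2.11 (adjusted p = 0.217).

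**Figure D4:**
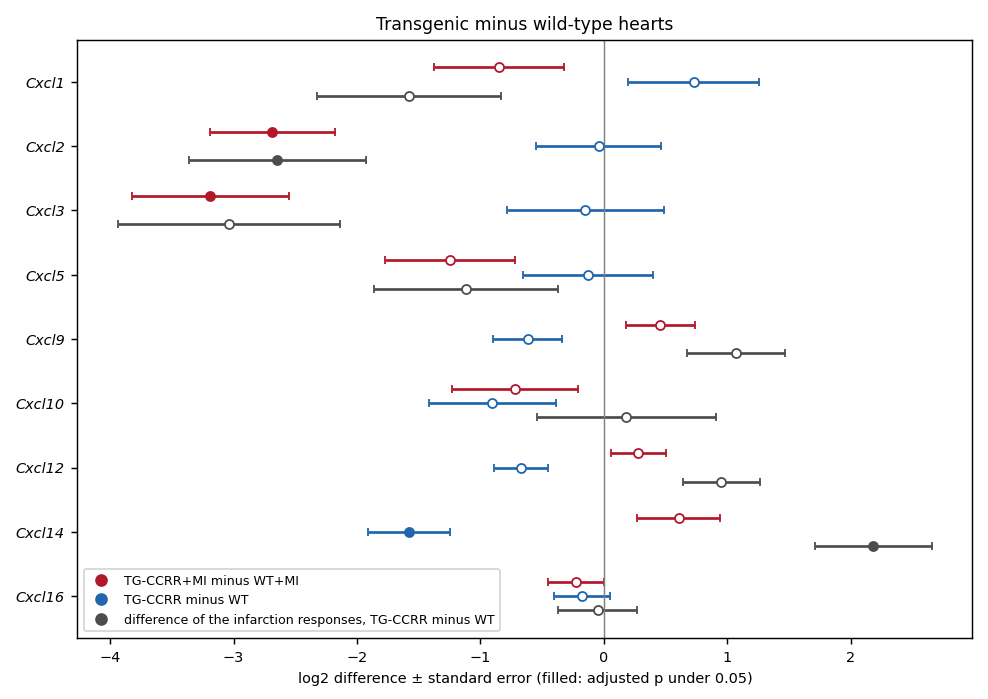
Log2 difference of TG-CCRR+MI minus WT+MI hearts (red), TG-CCRR minus WT hearts (blue) and the difference between their infarction responses (grey), with standard errors, for 9 tested CXC chemokine genes. Filled points passed an adjusted p of 0.05. Cxcl2 and Cxcl3 lie lower in TG-CCRR+MI hearts, and Cxcl14 lies lower in TG-CCRR hearts with a positive difference of responses.

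Cxcl13 was not tested, because it was well above background on TG-CCRR+MI 2 and 3 alone. Its levels were -4.53, -3.50 and -2.13 in TG-CCRR+MI hearts, -3.74, -3.36 and -4.12 in WT+MI, -4.19, -5.40 and -5.78 in TG-CCRR and -4.96, -5.47 and -5.38 in WT hearts. Both arrays where this B cell attractant counted as well above background were from infarcted transgenic hearts, and the third array of that group was dim. WT+MI 2 (-3.36) did not count so, although its level lay above that of TG-CCRR+MI 2 (-3.50). The levels of the infarcted groups overlapped.

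Cxcl10, Cxcl12, Cxcl14 and Cxcl16 each had a second probe. The second probes of Cxcl10 and Cxcl14 were below background on all 12 arrays. Cxcl12 is read by a probe at chr6:117131227-117131286 and a dimmer one at chr6:117125026-117125085 (mm9), which the files assign to different transcripts. In WT+MI against WT the first gave -0.40 and the second 0.47, and neither passed. The Cxcl16 probes, at chr11:70267780-70267839 and chr11:70269481-70269540 (mm9), gave -0.27 and 0.20 there. Neither passed in any comparison. The Cxcl16 locus (chr11:70454389-70459984, GRCm38) overlaps Zmynd15 (chr11:70459433-70466204, GRCm38).

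Of the receptors, Cxcr2 had the pattern of its ligands, with levels of -2.68, -0.95 and -2.69 in TG-CCRR+MI hearts and 1.65, 0.40 and 0.66 in WT+MI hearts, while all TG-CCRR and WT arrays were below background. WT+MI hearts were at least 26.0-fold above WT hearts (adjusted p = 1.82e-05), and TG-CCRR+MI hearts were at least 2.74-fold above TG-CCRR hearts (adjusted p = 0.00153). The receptor was lower in TG-CCRR+MI than in WT+MI hearts (difference -3.01 ± 0.44, adjusted p = 0.0239). Cxcr2 entered the test through the infarcted groups alone. No difference of responses is given for it, since neither baseline was measurable.

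Of 5 tested receptors 3 rose and 1 fell in WT+MI against WT, where 18.6% of all tested genes rose and 29.3% fell. Cxcr6, the receptor of Cxcl16 on T cells and natural killer cells, rose by 2.498 ± 0.36 (adjusted p = 0.000514), and Cxcr4 rose by 1.36 ± 0.28 (adjusted p = 0.00322). Ackr3, which scavenges Cxcl12, had levels of 4.21, 3.83 and 3.40 in WT+MI hearts, against 4.44, 4.87 and 4.71 in WT hearts, and fell by 0.86 ± 0.23 (adjusted p = 0.0105). Ackr1, the chemokine-binding receptor of venules and red cells, differed by 0.84 ± 0.54 (adjusted p = 0.223) at its brighter probe. Its dimmer probe, not above background on any WT array, gave a call (adjusted p = 0.0372), so the probes disagreed.

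Cxcr4 was also lower in TG-CCRR+MI than in WT+MI hearts, at -2.20, -2.45 and -2.54 against -0.03, -1.20 and -1.28 (difference -1.56 ± 0.28, adjusted p = 0.0242). Cxcr6 was higher in TG-CCRR+MI than in TG-CCRR hearts by 1.47 ± 0.36 (adjusted p = 0.0304). Its difference between TG-CCRR+MI and WT+MI hearts was -1.11 ± 0.36 (adjusted p = 0.0633). No receptor was called by limma in TG-CCRR against WT, where Cxcr4 alone had an unadjusted p under 0.05 (-0.73 ± 0.28, adjusted p = 0.211). Cxcr1, Cxcr3 and Cxcr5 were too dim to be tested. Cxcr3, the receptor of Cxcl9 and Cxcl10, was above background on 1 TG-CCRR+MI, no WT+MI, 1 TG-CCRR and 2 WT arrays.

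**Figure D5:**
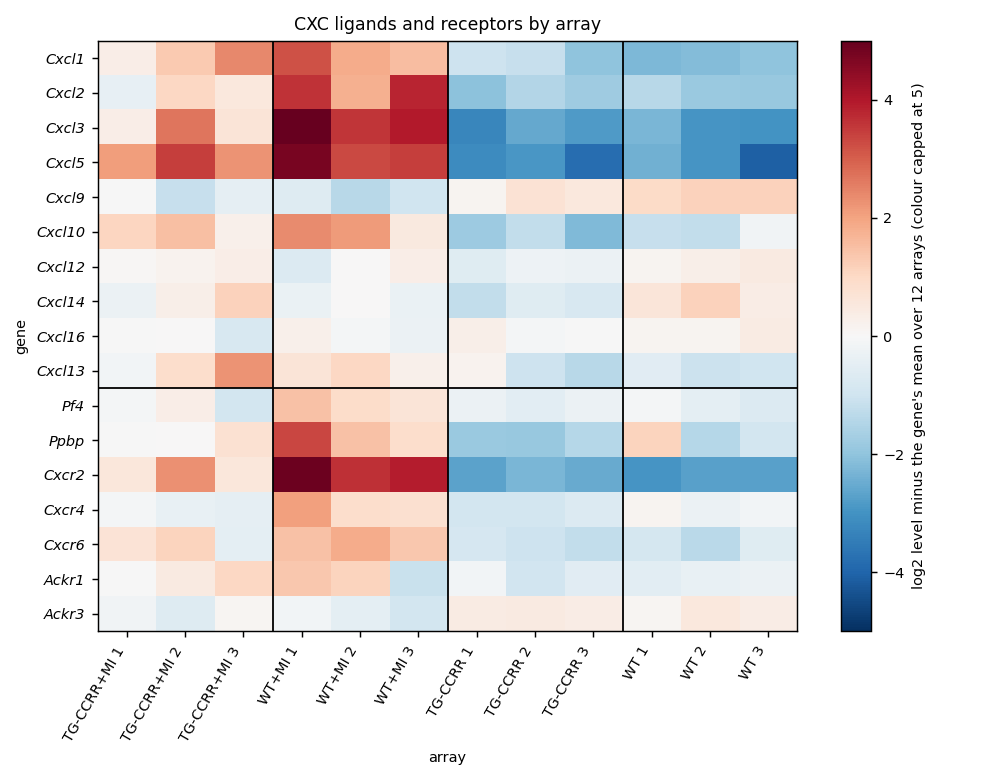
Log2 level of 12 CXC ligands and 5 receptors on each of 12 arrays, as the deviation from the gene's mean over the arrays (red above, blue below, capped at 5). Columns are ordered TG-CCRR+MI, WT+MI, TG-CCRR and WT. Cxcl1, Cxcl2, Cxcl3, Cxcl5 and Cxcr2 are highest on WT+MI arrays on average, lower on TG-CCRR+MI arrays and lowest on uninfarcted arrays.

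Of the other CXC ligands, the platelet chemokines Pf4 and Ppbp rose in WT+MI against WT, by 1.42 ± 0.31 (adjusted p = 0.0039) and 2.31 ± 0.69 (adjusted p = 0.0183), although the Ppbp groups overlapped at WT 1 (1.71). Pf4, which macrophages also make, was lower in TG-CCRR+MI than in WT+MI hearts, at 4.15, 4.57 and 3.32 against 5.70, 5.13 and 4.86 (difference -1.22 ± 0.31, adjusted p = 0.0364). Ppbp differed there by -1.65 ± 0.69 (adjusted p = 0.122). Both genes lie between Cxcl5 and Cxcl3 on chromosome 5. Cxcl15 and Cxcl17 were below background on every array. Cxcl11, the third Cxcr3 ligand, was read by probes that disagreed in WT+MI against WT, with -0.11 ± 0.16 (adjusted p = 0.6) at the brighter and 0.75 ± 0.24 (adjusted p = 0.0246) at the dimmer. A 20-base stretch of the brighter probe was also found in 22 of 32851 promoters of the table. The strain C57/BL6 is known to carry a defective Cxcl11 allele.

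Of the cytokines that induce these ligands and their receptors, 7 of 11 tested rose and 1 fell in WT+MI against WT. Of all tested genes 18.6% rose and 29.3% fell there. Il1b, an inducer of the neutrophil-attracting ligands, was higher by 6.98 ± 0.54 (adjusted p = 3.91e-05), and Ltb, a membrane-bound TNF family cytokine, by 3.20 ± 0.56 (adjusted p = 0.00134). Il17ra, the interleukin 17 receptor subunit, was at least 5.43-fold higher. Ifngr2, a subunit of the interferon gamma receptor, fell by 1.04 ± 0.15 (adjusted p = 0.000621). Tnf (-0.26 ± 0.18, limma, adjusted p = 0.256), Ifnar1 (-0.13) and Ifnar2 (0.008) did not pass. In TG-CCRR+MI against WT+MI 3 of 11 were lower, where 4.38% of all tested genes were. The differences were -3.03 ± 0.54 for Il1b (adjusted p = 0.0242), -2.40 ± 0.56 for Ltb and -1.15 ± 0.26 for Il17ra. In TG-CCRR+MI against TG-CCRR 4 of 11 were higher, where 5.21% of all tested genes were, with Il1b at least 13.3-fold higher. In TG-CCRR against WT limma called 0 of 11, with 3 at an unadjusted p under 0.05.

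Of 15 tested transcription factors and regulators 7 rose and 1 fell in WT+MI against WT. Of all tested genes 18.6% rose and 29.3% fell there, 47.9% in all, so a call by itself was common. Nfkbiz, a nuclear cofactor of NF-kappa B, was higher by 2.38 ± 0.46, Nfkbia, its inhibitor, by 1.62 ± 0.36, and Stat3, which carries interleukin 6 signals, by 1.42 ± 0.11. Irf1, an interferon-induced activator, fell by 0.38 ± 0.13 (adjusted p = 0.0299). Between TG-CCRR+MI and WT+MI limma called 0 of 15, with 4 at an unadjusted p under 0.05. In TG-CCRR+MI against TG-CCRR 5 of 15 were higher, where 5.21% of all tested genes were. In TG-CCRR against WT, where 2.62% of all tested genes were called, Irf1 was lower (-0.75 ± 0.13, adjusted p = 0.0146) and Stat3 higher (0.46 ± 0.11, adjusted p = 0.0491). The interaction was called for Nfkbia (-1.95 ± 0.51), Irf1 (0.76 ± 0.18) and Stat3 (-0.65 ± 0.15), where 8.9% of all tested genes were called. With slide as a block limma called 3 of all tested genes in the interaction, with 3212 at an unadjusted p under 0.05.

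Of 12 tested genes that act below chemokine receptors, 10 rose and none fell in WT+MI against WT, where 18.6% of all tested genes rose. In TG-CCRR+MI against TG-CCRR hearts 1 rose and 1 fell, with a median difference of 0.17 against 0.04 over all tested genes. In TG-CCRR+MI against WT+MI 9 were lower and none higher, where 4.38% of all tested genes were lower. The median difference was -0.90 against 0.09 over all tested genes. These groups shared no slide, and with slide as a block limma called 0 of all tested genes, with 1469 at an unadjusted p under 0.05. Vav1, an exchange factor for Rac, was 3.05 ± 0.40 higher in WT+MI than in WT hearts and differed by -1.85 ± 0.40 between TG-CCRR+MI and WT+MI hearts (adjusted p = 0.0287). Fgr, a Src-family kinase, differed there by -2.35 ± 0.66 and Rac2, a GTPase of blood cells, by -1.82 ± 0.49. These 3 genes are chiefly expressed in leukocytes. Whether the number of leukocytes accounts for their values was not tested. Of 7 tested proteases that cut chemokines, 2 rose and 2 fell in WT+MI against WT, where 18.6% of all tested genes rose and 29.3% fell. Mmp8 and Mmp9 rose, while Mmp2 (-0.97 ± 0.23) and Dpp4 (-0.73 ± 0.21) fell. Mmp8 and Mmp9 were also lower in TG-CCRR+MI than in WT+MI hearts (-2.004 ± 0.55 and -2.68 ± 0.66).

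Likeness in level over the 12 arrays was described by Pearson's r among all tested genes, which group differences dominate. The most similar genes outside the family were Egr2 (r = 0.996), Has1 and Uhrf1bp1l for Cxcl1, and Cstdc4 (0.995), Adam8 and Cxcr2 (both 0.994) for Cxcl3. For Cxcl2 they were Tnfrsf10b (0.984), Fpr1 (0.983) and an interval probe without a gene name, and for Cxcl5 they were AA467197 (0.988), Ap2b1 and Socs3. Cxcl10 was most like 8030431J09Rik (0.963), Xbp1 and Atf1, and Cxcl9 most like 1700113H08Rik (0.970), Gm12002 and Pcdh17. Values were lower for Cxcl14, with Abhd5 (0.940), 4930512M02Rik and LOC105244413, for Cxcl16, with Tmem229b (0.927), Zmynd15 (0.902) and Ints6l, and for Cxcl12, with 1700101I11Rik (0.892), Atp6v1c1 and Ppm1a. Within the family, Cxcl2 and Cxcl3 had r = 0.972 and Cxcl3 and Cxcl5 had r = 0.962, while Cxcl5 and Cxcl9 had r = -0.894.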

How the data were processed

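RNA of 12 mouse heart samples was measured, 3 arrays a group, grouped by the labels. Spot intensity was background-subtracted with Agilent Feature Extraction 12.0.3.1 and deposited as linear processed signal, per the file headers. The authors also deposited a log2 value table of the same arrays, whose normalization is not given in the sources used here. Its columns ranked probes as their own arrays did, with medians of 4.21 to 4.22, so log2 scale and array identity were read from the values and its centring was not. Limma is named in the submitters' processing notes, with neither role nor version.

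Here intensity was taken to log2, outlier spots were dropped, the remaining spots of each probe were averaged, and the 75th percentile of an array's non-control probes was set to 0. Each gene was represented by its brightest probe, and a gene was tested if that probe was well above background on each of the 3 arrays in 1 or more groups. One group-means model over 12 arrays was fitted with limma 3.58.1 (lmFit, eBayes) in R 4.3.3 (data.table package, release 1.17.8) and adjusted by Benjamini-Hochberg. The code was tested on simulated data. Figures used Python 3.11.15 and matplotlib 3.10.9. Names were updated through RefSeq's gene list (assembly GRCm38.p6), which matched 32994 probes by accession, 10224 by symbol and 520 by synonym, while 12867 kept the file's name. Probe positions are mm9.

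The members and gene lists were chosen with earlier results of these data known. All 10 members were described whatever their values, other lists by counts with up to 6 called genes of largest difference, and all receptors and other CXC ligands. The alternatives tried were quantile normalization, normexp with an offset of 50, the authors' table, other filters on dim probes, every probe tested alone, slide as a block or within slide, a replicate block and leaving out each array. The number of arrays and the share of probes above background limit the precision. Results of some listed genes are not reported here.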

Additional observations from a re-analysis of the deposited data

Results flagged for a closer look

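The interaction of genotype and infarction was called for 2 members. The response of Cxcl2 in TG-CCRR minus that in WT hearts was -2.65 ± 0.72 (limma, adjusted p = 0.0477). Cxcl2 was below background on every TG-CCRR and WT array and was tested through WT+MI alone, so this fitted value is no measured difference of responses, and without a filter on dim probes it did not pass (adjusted p = 0.0815). The corresponding value for Cxcl14 was 2.19 ± 0.47 (limma, adjusted p = 0.0358), with a rise in TG-CCRR hearts and a fall in WT hearts. Neither passed with slide as a block, at -2.63 (adjusted p = 0.244) and 2.11 (adjusted p = 0.217).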

How the results depend on the processing

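Over all members, comparisons and alternatives, 781 values kept their direction and side of the threshold, 103 lost a call, 8 gained one and 20 changed sign, none of those called. Cxcl1, Cxcl2, Cxcl3, Cxcl5, Cxcl9 and Cxcl10 kept their calls in WT+MI against WT under every alternative that tested them. Without a filter on dim probes, the members called were 0 in TG-CCRR against WT (2 at an unadjusted limma p under 0.05), 0 in TG-CCRR+MI against WT+MI (3 unadjusted), 4 in TG-CCRR+MI against TG-CCRR and 0 in the interaction (5 unadjusted), and the genes called were 205, 14, 955 and 55, with more genes tested. Testing only genes above background on all 12 arrays, which drops Cxcl2, Cxcl3 and Cxcl5, left 4 members in WT+MI against WT, 0 in TG-CCRR+MI against WT+MI (0 unadjusted), 4 in TG-CCRR+MI against TG-CCRR and 1 in the interaction. That count was also 1 with quantile normalization, normexp, the authors' table and every probe on its own. With slide as a block the members called were 0, 0, 1 and 0 in TG-CCRR against WT, TG-CCRR+MI against WT+MI, TG-CCRR+MI against TG-CCRR and the interaction (2, 2, 7 and 3 at an unadjusted limma p under 0.05), and the genes 320, 0, 119 and 3 (1469 unadjusted where 0). Within slide 2 limma called 0 members (5 unadjusted) and 0 genes (1694 unadjusted). The cause of these moves beyond the number of genes or arrays was not tested.

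Leaving out 1 array gave, for members and genes, 6 to 8 and 7275 to 10427 in WT+MI against WT, 0 to 2 and 147 to 833 in TG-CCRR against WT, 0 to 2 and 0 to 3495 in TG-CCRR+MI against WT+MI, 3 to 8 and 672 to 2288 in TG-CCRR+MI against TG-CCRR, and 0 to 4 and 63 to 2671 in the interaction. In TG-CCRR+MI against WT+MI the genes called were 0 without TG-CCRR+MI 1 (5339 at an unadjusted limma p under 0.05), 8 without TG-CCRR+MI 3 and 117 without WT+MI 1. Same-numbered arrays deviated together with correlations of -0.26 to 0.09, which gave no sign that the numbers pair the samples. With 3 arrays a group, these values cannot exclude a pairing. With a replicate block 342 genes were called in TG-CCRR against WT and 1156 in the interaction.

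Signs that turned were those of Cxcl10 in the interaction (-0.042 with normexp), Cxcl5 in TG-CCRR against WT (0.13 with slide as a block and on slide 1), Cxcl1 in TG-CCRR+MI against WT+MI (0.080 with slide as a block) and Cxcl16 in the interaction (0.043 with slide as a block). With 1 array left out, values ran from -0.19 to 0.12 for Cxcl2, -0.32 to 0.082 for Cxcl3 and -0.60 to 0.24 for Cxcl5 in TG-CCRR against WT. They ran from -0.40 to 0.53 for Cxcl10 and -0.19 to 0.22 for Cxcl16 in the interaction, and from -0.0012 to 0.49 for Cxcl12 and -0.37 to 0.045 for Cxcl16 in TG-CCRR+MI against WT+MI.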
